A study of Mus musculus with 6 samples.

Results

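The genes described here encode the machinery that carries the T-cell receptor signal from the cell surface to the nucleus. They were taken as a fixed list of 42 gene symbols, from the CD3 chains to the NFAT factors. All 42 are among the 24421 genes of the expression table, and all 42 passed the filter on low values (1 FPKM or more in 2 or more libraries), which left 10436 genes for testing. FPKM is the number of fragments counted for a gene, divided by the length of its transcript and by the size of the library, so levels of different genes can be set side by side.

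The libraries were made by SMART-seq, which copies poly(A) RNA into cDNA from an oligo-dT primer and amplifies it by PCR. The cells are labelled regulatory T cells (Treg), CD4 lymphocytes that depend on the factor FOXP3 and keep other immune cells in check, from spleen and lymph nodes of wild-type mice. There are 3 groups of 2 libraries: cells with no treatment (unstimulated), cells given stimulation, and cells given stimulation+iBP, where iBP is described by the study as an inhibitor of the histone mark H2AK119ub1. The stimulus, its duration, the dose of iBP and the age of the mice are not stated in the labels, nor is the way the Treg were purified, and no group had iBP without stimulation. The design also names mice with a conditional knockout of Kdm2b, not analysed here.

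When the T-cell receptor meets its ligand, the kinase LCK phosphorylates the CD3 and zeta chains, ZAP-70 docks there, and ZAP-70 phosphorylates the adaptors LAT and SLP-76. Phospholipase C gamma then makes 2 second messengers. Diacylglycerol activates RASGRP1 and PKC-theta, which lead to Ras and NF-kappaB, and inositol trisphosphate releases calcium, which leads through STIM1, ORAI1 and calcineurin to NFAT. Treg depend on this receptor both for their development and for their suppressive function, and phosphatases, ubiquitin ligases and adaptors hold the signal in check.

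Summed FPKM ranged from 366044 to 381302 over the 6 libraries, with 12596 to 13592 genes above 0, and the read depth is unknown. No label ties the 2 libraries of a group to different animals or cultures, and the p-values therefore reflect just how far these libraries differ, which may be technical. Of 12 T-cell marker genes 9 are in the table, all of them also in the list described here, and their summed FPKM was 3015 to 3471 in unstimulated, 3372 to 3648 in stimulated and 3239 to 3260 in iBP libraries. The 7 CD4 and Treg markers, Foxp3 and Il2ra among them, summed to 1172 to 1199, 1694 to 1819 and 1665 to 1667. All 12 B-cell markers were present, at 939.7 to 978, 975 to 1007 and 842 to 896. Receptor signalling genes that B cells also use, such as Ptprc, Ptpn6, Grb2, Vav1, Malt1 and Bcl10, are among the members, and the part of B cells in any result was not tested. In such bulk samples fewer cells of a type and less RNA per cell cannot be told apart.

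All 42 genes reached 1 FPKM in every library, and the mean level of most stood above the median of all tested genes. The median of the 42 mean levels was 35.9 FPKM, against 8.42 FPKM over all tested genes, and 17 of the 42 stood in the top 10% of tested genes. Cd2, the adhesion receptor for CD48, had the highest mean level, 2033 FPKM. It was followed by Ptprc (358 FPKM), which encodes the phosphatase CD45, and by Lat (317 FPKM) and Lck (259 FPKM). The lowest mean levels were those of Nfatc2 (2.93 FPKM), Sos1 (3.67 FPKM), Pag1 (4.54 FPKM) and the calcineurin gene Ppp3ca (4.69 FPKM). The 8 members below a mean of 10 FPKM had a median gap between replicates of 0.28 (log2), while the 18 members at 50 FPKM or more had a median gap of 0.13. Small differences are therefore resolved better for the abundant members than for the low ones. Among the calcium and NFAT genes, Nfatc2, Ppp3ca, Ppp3cb and Orai1 had means below 10 FPKM. Nfatc1 (36.5 FPKM), Nfatc3 (16.8 FPKM) and Stim1 (15.6 FPKM) did not.

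**Figure D1:**
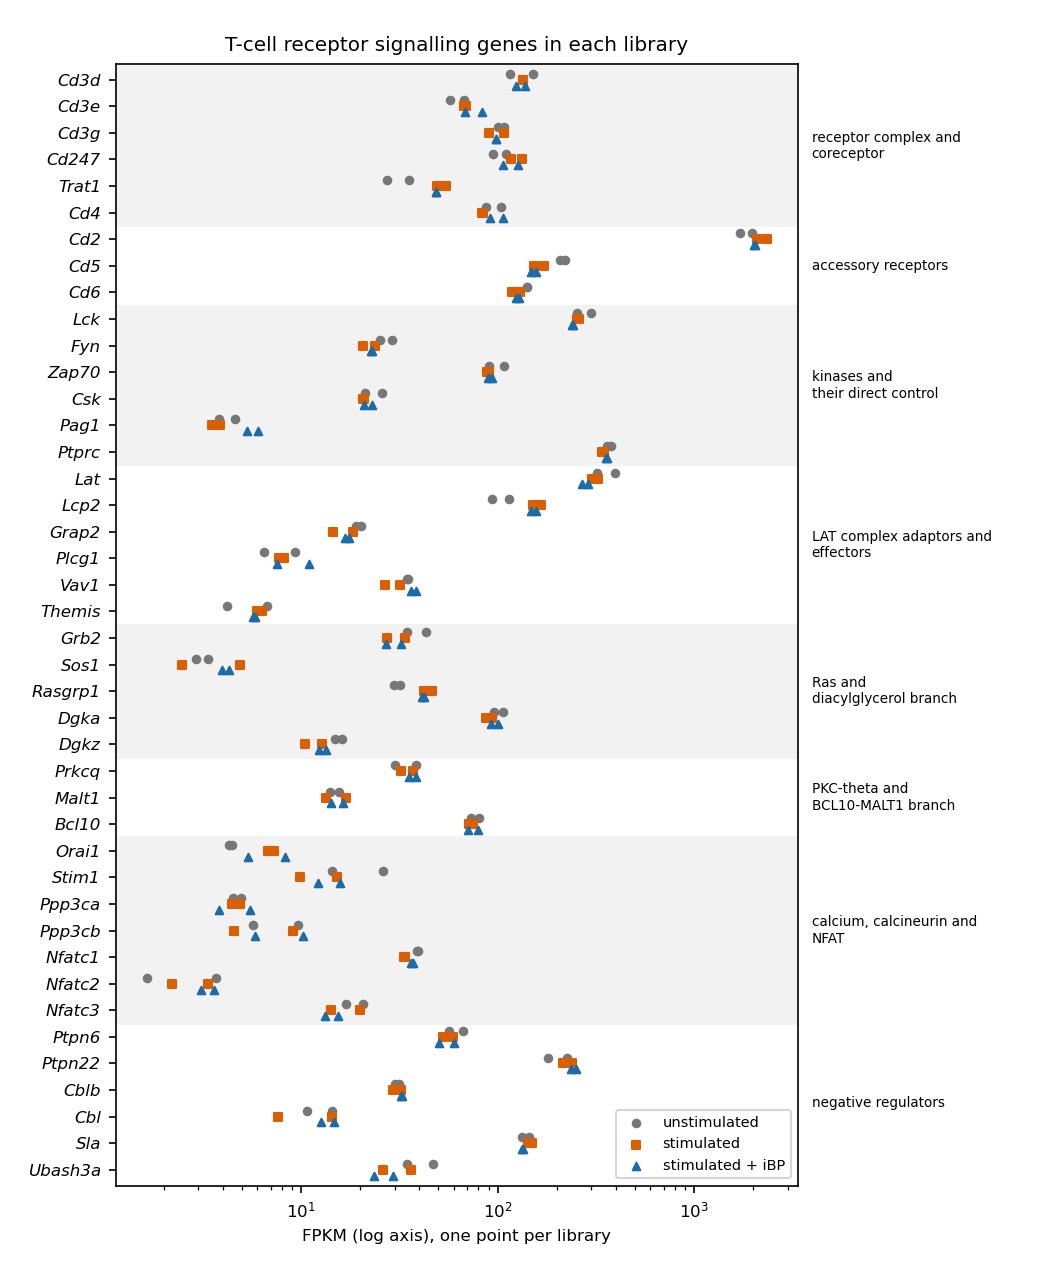
FPKM of the 42 genes in each of the 6 libraries, on a log axis, ordered by role. The 2 unstimulated libraries (grey circles) of Trat1, Lcp2 and Rasgrp1 lie left of the other 4 and those of Cd5 lie right of them, while genes such as Stim1 and Ppp3cb scatter within a group.

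The first comparison, stimulated against unstimulated, asks how the machinery's transcripts differ after stimulation. With limma on log2(FPKM + 1) and Benjamini-Hochberg adjustment over all tested genes, 0 of the 42 passed an adjusted p under 0.05, where 1.29% of all tested genes did (0.968% higher, 0.326% lower), and 5 had an unadjusted p under 0.05 (10.8% of all tested genes). The median difference of the 42 was −0.10 (log2), against −0.0024 over all tested genes, and 16 were positive (49.7% of all tested genes). It lay between −0.11 and −0.05 when single libraries were left out, and was nearest 0 without unstimulated replicate 2. In 7 members every stimulated library read higher than every unstimulated library (18.7% of all tested genes) and in 13 every stimulated library read lower (19.1%). The 95% interval of the difference lay within a 2-fold change in either direction for 39 of 42, the exceptions being Trat1, Orai1 and Stim1. Those intervals are not adjusted for the number of genes.

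The CD3 chains couple the receptor to its kinases, and 0 of these genes passed the test. Cd3d, the delta chain, read 151 and 116 FPKM without stimulation, 136 and 134 after it, and 124 and 138 where iBP was added. Cd3e, the epsilon chain, read 57.6 and 67.2, 67.3 and 69.0, and 68.6 and 83.3 FPKM, while Cd3g, the gamma chain, read 108 and 101, 108 and 90.5, and 98.2 and 97.9. The 3 groups overlapped for Cd3d, and for Cd3g the stimulated libraries overlapped both other groups. Cd247, which encodes the zeta chain with most of the complex's signalling motifs, read 111 and 95.2, 117 and 133, and 127 and 106 FPKM, a difference of 0.27 ± 0.14 (log2, SE; adjusted p = 0.523) between stimulated and unstimulated. Its exons share 3007 of 5329 bases with Pou2f1 on the opposite strand (GENCODE M21), and the strand of the libraries is not given, so some of its reads may belong to that gene, itself at 6.62 to 8.65 FPKM. Cd4, the coreceptor that brings LCK to the receptor, read 87.4 and 104, 84.3 and 83.1, and 107 and 91.3 FPKM.

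Trat1 stood apart within the receptor group. It encodes TRIM, a transmembrane adaptor that associates with the receptor's zeta chain. It read 35.3 and 27.3 FPKM without stimulation, 54.7 and 49.4 after it, and 48.9 and 48.4 where iBP was added, so that all 4 stimulated libraries lay above both unstimulated ones. The difference of stimulated from unstimulated was 0.73 ± 0.16 (log2, SE; 95% interval 0.38 to 1.08), just outside the threshold at an adjusted p of 0.0514 with limma. Foxp3, which marks the Treg themselves, read 35.5 and 47.1, 121 and 101, and 122 and 124 FPKM, groups in that order, and the part that a differing share of Treg has in these differences was not tested. Trat1 passed in 2 of 15 alternatives, with a minimum FPKM of 5 (0.0294) and without unstimulated replicate 1 (0.0365), and the other adjusted p reached 0.295 (without the variance trend).

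Lcp2 had the same order of groups. It encodes SLP-76, the adaptor that ZAP-70 phosphorylates and that joins phospholipase C gamma and VAV1 to LAT. It read 115 and 93.5 FPKM without stimulation, 151 and 166 after it, and 147 and 158 where iBP was added, with no overlap between the unstimulated and the other libraries. The difference was 0.60 ± 0.13 (log2, SE; 95% interval 0.32 to 0.89; adjusted p = 0.0507 with limma), a 1.52-fold ratio on the log2(FPKM + 1) scale. It passed in 4 of 15 alternatives, after rescaling to TPM (0.0490), with quantile normalization (0.0334), with a minimum FPKM of 5 (0.0288) and without unstimulated replicate 1 (0.0365). The other adjusted p reached 0.352 (without the variance trend), with 0.301 when stimulated replicate 2 was left out and 0.255 with unfiltered genes. Myeloid cells and platelets also use SLP-76. Their markers summed to 81.8 to 94.6, 94.9 to 96.3 and 75.6 to 106 FPKM for 10 myeloid genes and to 71.4 to 246, 79.9 to 91.4 and 74.9 to 188 FPKM for 6 erythroid and platelet genes, and their part in the Lcp2 difference was not tested.

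Of the other 5 genes of the LAT complex, 0 had an unadjusted p under 0.05 in this comparison with limma. Lat, the membrane scaffold, read 395 and 323 FPKM without stimulation, 302 and 326 after it, and 270.3 and 289 where iBP was added. Its unstimulated and stimulated libraries overlapped. Grap2, the adaptor GADS that bridges LAT and SLP-76, differed by −0.25 (adjusted p = 0.712 with limma), and Vav1, an exchange factor for Rac, by −0.25 (0.629). Plcg1, phospholipase C gamma 1, stood at 0.03 (0.987) and Themis, a regulator of selection in the thymus, at 0.17 (0.902).

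Among the accessory receptors, Cd5 had the largest difference. CD5 is an inhibitory receptor whose level in T cells tracks the strength of signals received. It read 221 and 209 FPKM without stimulation, 173 and 154 after it, and 149 and 158 where iBP was added, with both unstimulated libraries above the other 4. The difference of stimulated from unstimulated was −0.40 ± 0.12 (log2, SE; 95% interval −0.65 to −0.14; adjusted p = 0.168 with limma). Cd6, a related receptor, read 142 and 142, 119 and 129, and 124 and 129 FPKM, again with both unstimulated libraries highest (−0.19, adjusted p = 0.612). Cd2 read 1984 and 1709.8 FPKM without and 2095 and 2351 with stimulation (0.27 ± 0.11, adjusted p = 0.379), which is the opposite direction.

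All 6 kinase and kinase-control genes had negative differences, between −0.28 and −0.09, while 49.7% of all tested genes had positive ones. Of the 6 differences, 0 had an unadjusted p under 0.05. The largest was that of Fyn, the second Src kinase of T cells, which read 29.1 and 25.3 FPKM without and 20.8 and 23.8 with stimulation (−0.28 ± 0.17, adjusted p = 0.623 with limma). Lck read 300.1 and 253 FPKM against 255 and 261, and Zap70 109 and 90.5 against 88.1 and 90.2. Csk, the kinase that switches LCK off, stood at −0.15, its membrane anchor Pag1 at −0.15 and the phosphatase gene Ptprc at −0.10.

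In the Ras and diacylglycerol branch, Rasgrp1 read higher and Dgkz lower. RASGRP1 is the diacylglycerol-activated exchange factor that turns on Ras. It read 29.8 and 32.0 FPKM without stimulation, 46.2 and 42.2 after it, and 41.5 and 42.5 where iBP was added, without overlap between the unstimulated and the other libraries. The difference was 0.50 ± 0.15 (log2, SE; 95% interval 0.18 to 0.82; adjusted p = 0.166 with limma). Dgkz, a diacylglycerol kinase that removes the messenger, read 14.8 and 16.2 FPKM against 10.5 and 12.8 (−0.39, adjusted p = 0.526), and the kinase gene Dgka stood at −0.16 (0.734). The adaptor gene Grb2 stood at −0.34 (0.540) and its partner Sos1, at only 2.49 to 4.91 FPKM, at 0.13 (0.942).

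The PKC-theta branch, which leads to NF-kappaB, had differences of at most 0.06 in size between stimulated and unstimulated. Prkcq, the kinase gene, read 30.0 and 38.4, then 32.3 and 37.1, and finally 35.4 and 38.3 FPKM, groups in the same order. Bcl10, the adaptor of the complex, read 72.9 and 80.7, 74.8 and 71.9, and 70.6 and 80.0 FPKM. It stood at −0.06 (adjusted p = 0.926 with limma), with a 95% interval of −0.35 to 0.23, and Malt1, the protease of the complex, at 0.03 (0.987). For these 3 genes the groups overlapped in every comparison.

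The transcripts of the 2 proteins of store-operated calcium entry had differences of opposite sign, and both 95% intervals included 0. Orai1, the calcium channel, read 4.48 and 4.28 FPKM without stimulation, 6.80 and 7.28 after it, and 5.36 and 8.26 where iBP was added, with both unstimulated libraries lowest (0.58 ± 0.27, 95% interval −0.01 to 1.17; adjusted p = 0.477 with limma). Stim1, the calcium sensor of the endoplasmic reticulum, read 14.4 and 26.0 FPKM against 15.2 and 9.91 (−0.62 ± 0.29, adjusted p = 0.472), and its libraries overlapped. That difference was −1.02 without unstimulated replicate 1 and −0.21 without unstimulated replicate 2. The calcineurin subunit genes Ppp3ca (−0.01) and Ppp3cb (−0.18) and the NFAT genes Nfatc2 (0.08) and Nfatc3 (−0.14) overlapped too. Nfatc1 read 39.2 and 38.9 FPKM without stimulation, 33.8 and 33.5 after it, and 37.3 and 36.2 where iBP was added, so the groups were separate in each pair, with differences of at most 0.21 in size.

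Of the negative regulators, Ubash3a had the largest difference. Ubash3a, which encodes the suppressor protein STS-2, read 34.4 and 47.2 FPKM without stimulation, 26.3 and 36.3 after it, and 29.2 and 23.6 where iBP was added. The stimulated libraries overlapped the unstimulated ones (−0.37 ± 0.21, adjusted p = 0.565 with limma), and the iBP libraries lay below the unstimulated ones. The difference of stimulated from unstimulated ranged from −0.60 to −0.15 when single libraries were left out. Cblb, an E3 ubiquitin ligase that sets the need for costimulation, read 30.0 and 31.6, 32.3 and 29.4, and 32.2 and 32.6 FPKM, and its difference was −0.0024 with a 95% interval of −0.34 to 0.33. The ligase gene Cbl (−0.22), the phosphatase genes Ptpn6 (−0.13) and Ptpn22 (0.16) and the adaptor gene Sla (0.08) also overlapped between stimulated and unstimulated libraries.

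**Figure D2:**
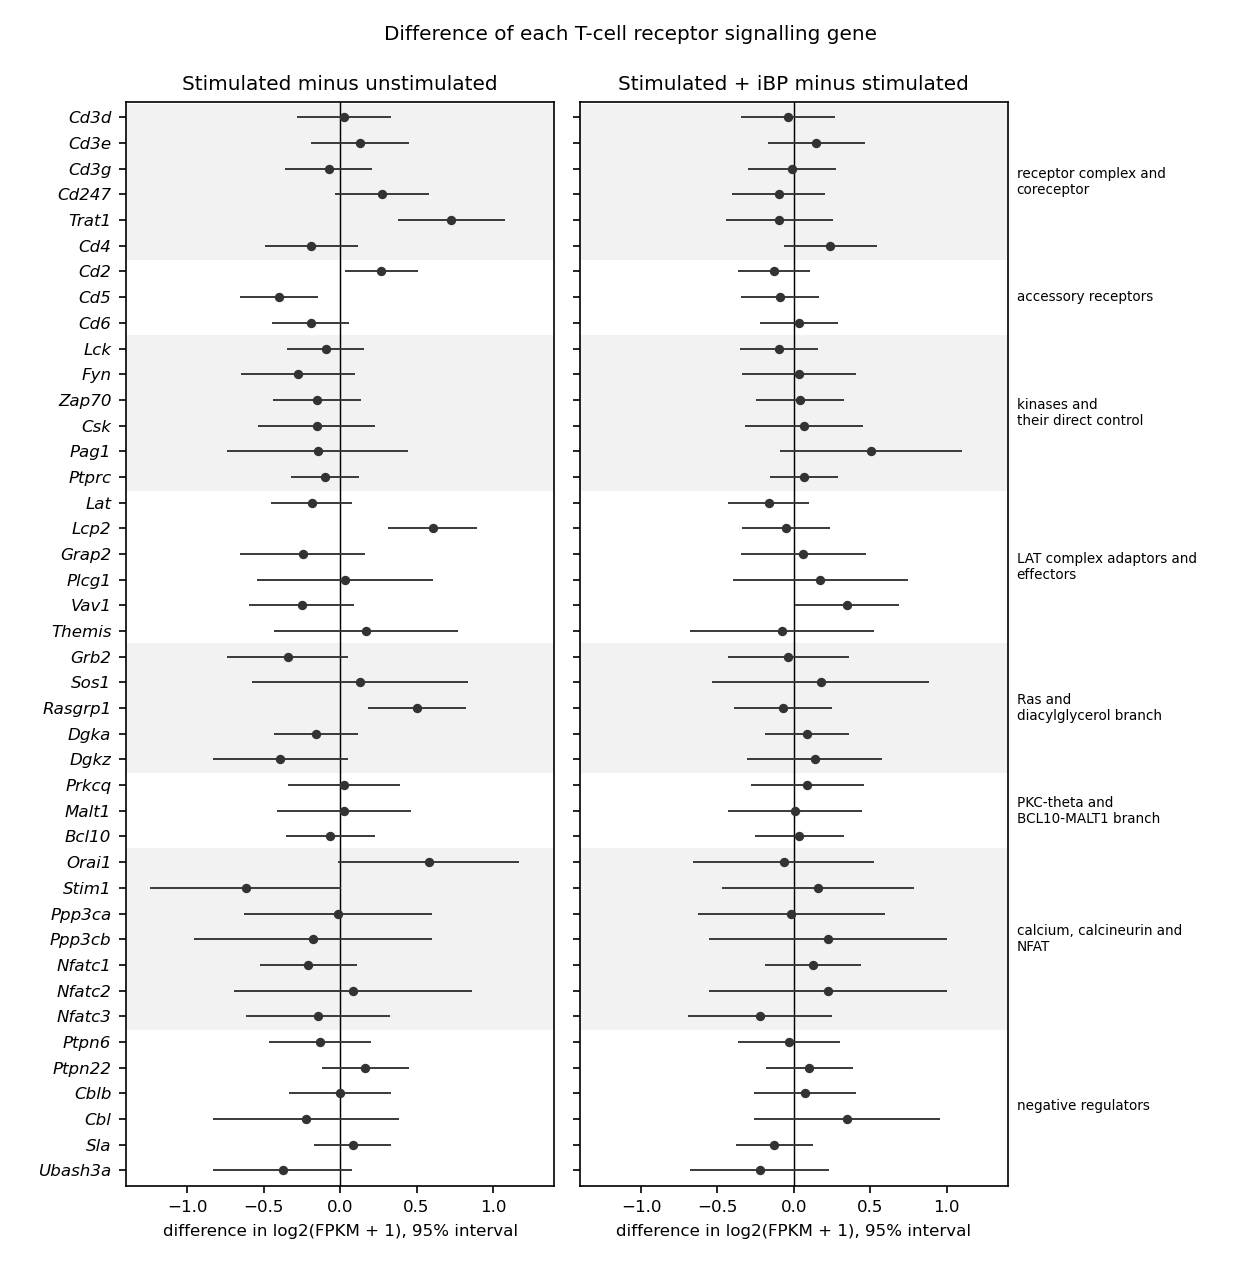
Difference in log2(FPKM + 1) of each of the 42 genes with its 95% interval from limma, for stimulated minus unstimulated on the left and stimulated with iBP minus stimulated on the right. On the left the intervals of Trat1, Lcp2, Rasgrp1 and Cd2 lie above 0 and that of Cd5 below it; on the right only that of Vav1 leaves out 0.

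The second comparison, iBP against stimulated, asks how the machinery differs between stimulation with iBP and stimulation alone. Of the 42 genes 0 passed with limma (0.00958% of all tested genes did), and 1 had an unadjusted p under 0.05 (4.77% of all tested genes). The median difference was 0.03 (log2) against −0.03 over all tested genes, and 24 of 42 were positive (44.2% of all tested genes). It turned to −0.016 without stimulated replicate 1 and was 0.06 without iBP replicate 1. In 5 members both iBP libraries read higher than both stimulated ones (13.6% of all tested genes), and in 6 both read lower (21.0%). The 95% interval lay within a 2-fold change for 40 of 42, with Pag1 and Ppp3cb outside.

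Pag1 had the largest difference with iBP. It encodes the membrane adaptor that holds CSK close to the Src kinases. It read 3.86 and 3.54 FPKM after stimulation alone and 5.33 and 6.04 with iBP added, against 3.83 and 4.61 without stimulation, so the iBP libraries were the highest of the 6. The difference was 0.51 ± 0.27 (log2, SE; 95% interval −0.09 to 1.10; adjusted p = 0.998 with limma). Vav1 read 31.9 and 26.7 FPKM after stimulation alone and 36.4 and 38.3 with iBP added (0.35 ± 0.16, 95% interval 0.004 to 0.69; adjusted p = 0.998), which put the iBP libraries just above the unstimulated 34.7 and 35.2. Cd4 stood at 0.24 ± 0.14, with both iBP libraries above both stimulated ones.

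In the other role groups the largest differences with iBP had 95% intervals that included 0. Cbl read 14.4 and 7.65 FPKM after stimulation alone and 12.7 and 14.7 with iBP added (0.35 ± 0.28), and Cd2 2095 and 2351 against 2038 and 2016 (−0.13 ± 0.11). The Cbl difference was −0.07 without stimulated replicate 2 and 0.76 without stimulated replicate 1. Sos1 read 2.49 and 4.91 against 3.98 and 4.29 FPKM (0.18 ± 0.32) and Ppp3cb 4.57 and 9.09 against 5.83 and 10.2 FPKM (0.22 ± 0.36). Prkcq stood at 0.09 ± 0.17. The genes with the lowest adjusted p after stimulation had small differences with iBP: Trat1 of −0.09 (95% interval −0.44 to 0.26), Lcp2 of −0.05 (−0.34 to 0.24), Rasgrp1 of −0.07 (−0.39 to 0.25) and Cd5 of −0.09 (−0.34 to 0.17). A p that misses the threshold does not show that these levels were equal.

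The third comparison, iBP against unstimulated, shares its unstimulated libraries with the first. Again 0 of 42 genes passed with limma (1.75% of all tested genes did, 1.03% higher and 0.728% lower), with 6 at an unadjusted p under 0.05 (12.2%). Both iBP libraries read higher than both unstimulated ones in 11 members (18.1% of all tested genes) and lower in 12 (23.9%). The median difference was −0.02 against −0.03 over all tested genes, and the 95% interval lay within a 2-fold change for 37 of 42. That median turned to 0.03 without unstimulated replicate 2 and was −0.07 without unstimulated replicate 1. Trat1 stood at 0.63 ± 0.16 (log2, SE; adjusted p = 0.0827), Lcp2 at 0.55 ± 0.13 (0.0644) and Rasgrp1 at 0.43 ± 0.15 (0.221). Cd5 stood at −0.49 ± 0.12 (0.0644), Ubash3a at −0.60 ± 0.21 (0.237) and Lat at −0.35 (0.237). Orai1 stood at 0.51 ± 0.27 (0.490), Pag1 at 0.36 ± 0.27 (0.670) and Prkcq at 0.11 ± 0.17 (0.862).

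Since the stimulated and iBP libraries differed little in these genes, their mean was also set against the unstimulated libraries, in a contrast chosen after the values were seen. The adjusted p-values of this contrast do not allow for that choice. Trat1 and Lcp2 rose and Cd5 fell, so that 3 of the 42 genes (7.14%) passed with limma where 2.43% of all tested genes did (1.51% higher, 0.92% lower). Trat1 rose by 0.68 ± 0.14 (log2, SE; adjusted p = 0.0244), Lcp2 rose by 0.58 ± 0.11 (0.0194) and Cd5 fell by 0.44 ± 0.10 (0.0435), each with all 4 stimulated libraries on the same side of both unstimulated ones. In all, 6 members read higher in all 4 (9.98% of all tested genes) and 7 lower (11.7%). Rasgrp1 stood at 0.47 ± 0.13 (0.0938). The 3 calls depended on single libraries. Without unstimulated replicate 2 the adjusted p was 0.121 for Trat1, 0.112 for Lcp2 and 0.0806 for Cd5, without iBP replicate 1 it was 0.0804, 0.0600 and 0.165, and without iBP replicate 2 it was 0.0763, 0.0846 and 0.123. Trat1 also lost its call without stimulated replicate 1 (0.0733), Lcp2 and Cd5 without stimulated replicate 2 (0.0574 and 0.0991), and Cd5 without unstimulated replicate 1 (0.240). Without the filter on low values the adjusted p was 0.167 for Trat1, 0.174 for Lcp2 and 0.167 for Cd5, and without the variance trend it was 0.196, 0.241 and 0.316. Cd5 also missed the threshold after rescaling to TPM (0.0561), with median-of-ratios scaling (0.0690) and with quantile normalization (0.0569).

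**Figure D3:**
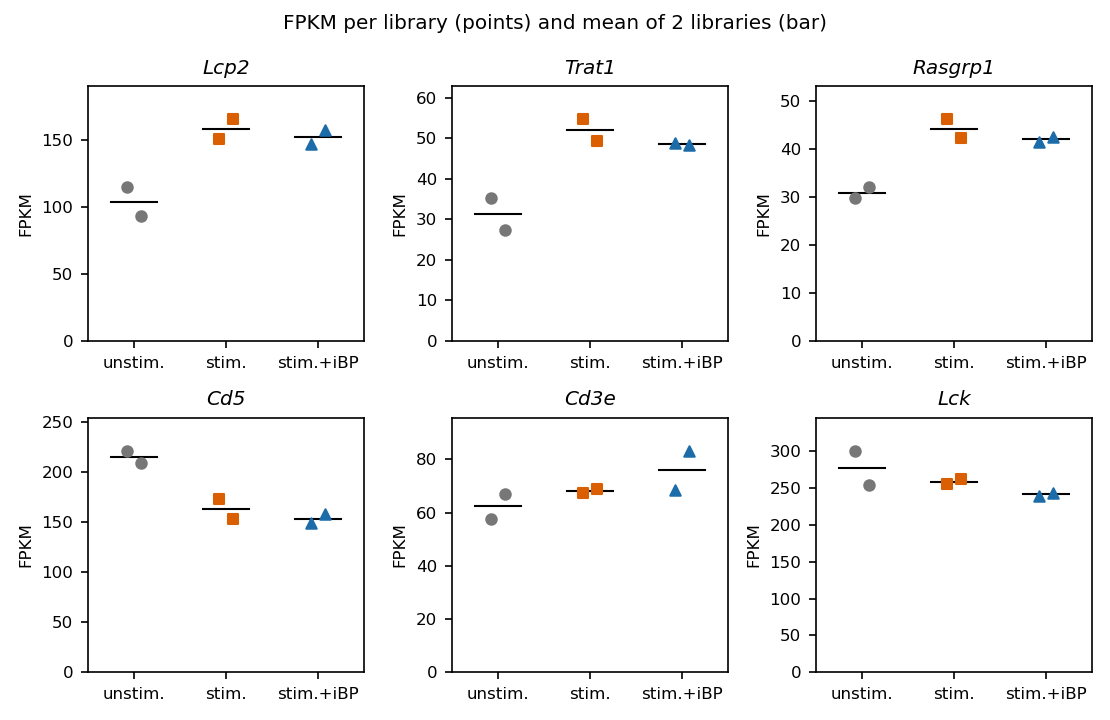
FPKM of 6 genes in each library (points) with the mean of the 2 libraries of a group (bars), on axes that start at 0. Lcp2, Trat1 and Rasgrp1 are lower and Cd5 is higher in both unstimulated libraries than in the other 4. Cd3e and Lck are shown as genes of the same pathway with smaller differences. Cd3e is also lowest in both unstimulated libraries, and Lck is lowest in both iBP libraries.

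A further 85 genes of the pathway were listed, of which 79 are in the table and 77 were tested. Between stimulated and unstimulated libraries 3 of the 77 rose and 0 fell, against 0.968% of all tested genes called higher and 0.326% called lower. Icos, the costimulatory receptor, read 106 and 109 FPKM without stimulation, 205 and 229 after it, and 204 and 207 where iBP was added (1.01 ± 0.11, adjusted p = 0.000993 with limma). Tagap, a GTPase-activating protein of activated T cells, read 106 and 135, 183 and 191, and 172 and 162 FPKM (0.64 ± 0.13, adjusted p = 0.0404). Icos also rose in iBP against unstimulated libraries, where 2 of 77 rose and 0 fell (1.03% of all tested genes were called higher and 0.728% lower). With both stimulated groups combined 4 of 77 rose and 0 fell (1.51% and 0.92% of all tested genes), among them Icos, Tagap and Pik3r1, a regulatory subunit of PI 3-kinase (0.69, adjusted p = 0.0356). Icos kept an adjusted p under 0.05 without any single library, but not without the filter on low values (0.0545, stimulated against unstimulated) or the variance trend (0.138). The same comparison lost Tagap when unstimulated replicate 1, either stimulated library or either iBP library was left out. Tagap also missed the threshold with a pseudocount of 0.1 (adjusted p = 0.0529 with limma), without the filter (0.251) and without the variance trend (0.343). It was lost too with only the 2 groups compared (0.0902) and with a replicate term (0.0998). The call of Pik3r1 in the combined contrast was lost without any library but stimulated replicate 1 (0.104 to 0.117). With iBP against stimulated 0 of 77 passed with limma and 2 had an unadjusted p under 0.05 (4.77% of all tested genes). The largest differences were those of Pdpk1, the kinase that activates AKT, at 0.42 ± 0.27 and of the calcium channel gene Orai2 at −0.73 ± 0.31.

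KDM2B, the protein deleted in the study's knockout mice, recruits the Polycomb complex PRC1.1 to unmethylated CpG dinucleotides, so the CpG content of the members' promoters was described. A promoter is here the 300 bases from 250 before to 50 after an annotated start (RefSeq, GRCm38.p6), found for 34 of the 42 genes (not Cd2, Cd4, Cd6, Malt1, Nfatc1, Pag1, Ppp3ca and Sla). It was called CpG-rich with at least 55% G and C and at least 0.6 of the CpG number its composition predicts. At least 1 such promoter was found for 15 of 34 members (44.1%), against 67.7% of the 7886 tested genes with a promoter. The CD3 chains, Lck, Zap70, Lat, Lcp2, Trat1, Cd5 and Ptprc had none, while Rasgrp1, Fyn, Prkcq, Bcl10, Stim1, Orai1, Cbl and Cblb had one. The median of the mean levels was 93.4 FPKM for the 19 members without a CpG-rich promoter and 16.8 FPKM for the 15 with one, whereas over all tested genes it was 6.93 and 9.63 FPKM. With iBP against stimulated the median difference was −0.04 (log2) for the 19 and 0.09 for the 15, with 7 and 12 positive. Over all tested genes the medians were −0.05 and −0.03, with 1068 of 2550 and 2397 of 5336 positive. The 95% interval of each of the 15 included 0. Leaving out single libraries changed some signs, as for Cbl (−0.07 to 0.76) and Plcg1 (−0.07 to 0.41). The differences of these genes share libraries, and whether promoter CpG content bears on them was not tested. With stimulated against unstimulated the members' medians were −0.10 and −0.06, with 7 and 6 positive, and with iBP against unstimulated they were −0.03 and 0.07, with 8 and 8 positive. Over all tested genes 1293 of 2550 and 2608 of 5336 were positive with stimulated against unstimulated. With iBP against unstimulated 1158 of 2550 and 2397 of 5336 were.

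**Figure D4:**
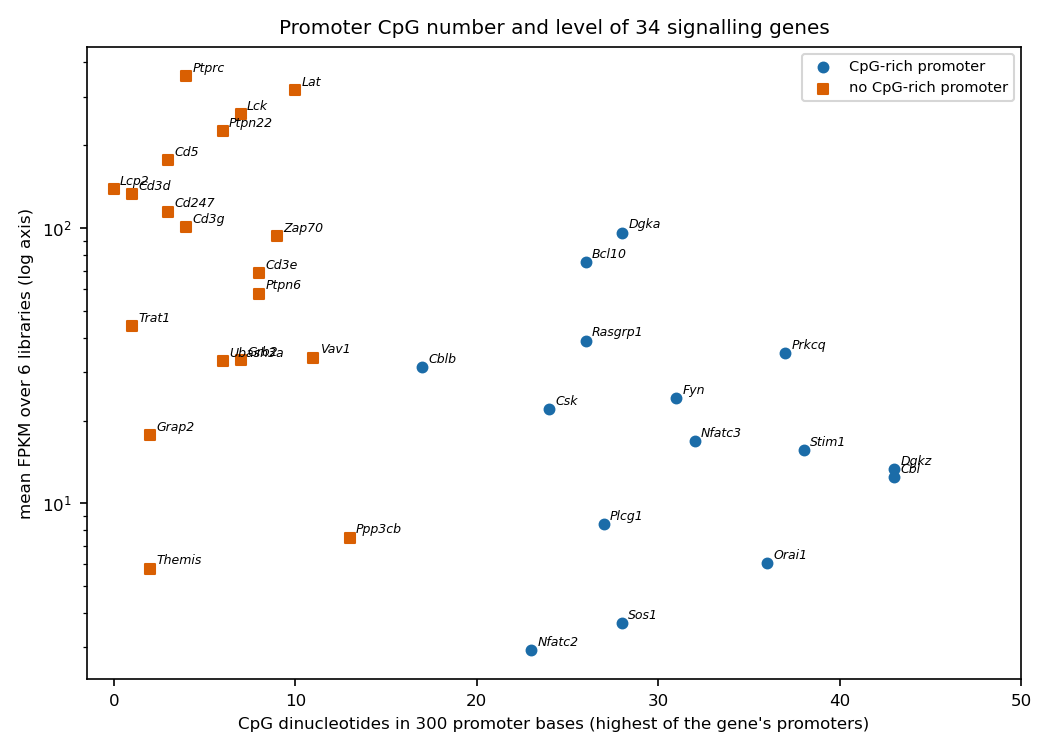
Mean FPKM over 6 libraries (log axis) against the number of CpG dinucleotides in 300 promoter bases (highest of the promoters of a gene), for the 34 genes with a promoter entry. The genes without a CpG-rich promoter (squares) lie at 0 to 13 CpG and reach 358 FPKM (Ptprc), and those with one (circles) lie at 17 to 43 CpG and stay below 100 FPKM.

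The promoters of the 3 genes that passed the combined contrast and of Rasgrp1, next in adjusted p, are shown because they include both kinds, with 0 CpG in Lcp2 and 26 in Rasgrp1 over the 300 bases. Each line gives the 250 bases before the start, 5′ to 3′ on the gene's strand (RefSeq, GRCm38.p6), with CpG dinucleotides in capitals. They lie at chr11:34046678-34046927 on the plus strand (Lcp2), and on the minus strand at chr16:48772063-48772312 (Trat1), chr19:10738975-10739224 (Cd5) and chr2:117342878-117343127 (Rasgrp1).
Lcp2: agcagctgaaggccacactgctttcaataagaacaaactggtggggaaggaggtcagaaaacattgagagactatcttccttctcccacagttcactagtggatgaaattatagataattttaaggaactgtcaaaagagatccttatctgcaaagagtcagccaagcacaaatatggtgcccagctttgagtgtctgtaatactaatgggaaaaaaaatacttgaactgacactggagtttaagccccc
Trat1: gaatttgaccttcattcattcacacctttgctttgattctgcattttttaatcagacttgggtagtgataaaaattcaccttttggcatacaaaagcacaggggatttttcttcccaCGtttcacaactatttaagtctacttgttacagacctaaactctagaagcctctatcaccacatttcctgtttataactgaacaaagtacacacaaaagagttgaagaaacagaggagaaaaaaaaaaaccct
Cd5: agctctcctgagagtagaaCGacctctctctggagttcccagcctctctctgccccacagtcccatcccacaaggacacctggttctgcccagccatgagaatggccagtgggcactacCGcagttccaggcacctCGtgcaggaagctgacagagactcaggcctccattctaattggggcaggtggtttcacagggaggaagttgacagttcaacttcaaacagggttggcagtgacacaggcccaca
Rasgrp1: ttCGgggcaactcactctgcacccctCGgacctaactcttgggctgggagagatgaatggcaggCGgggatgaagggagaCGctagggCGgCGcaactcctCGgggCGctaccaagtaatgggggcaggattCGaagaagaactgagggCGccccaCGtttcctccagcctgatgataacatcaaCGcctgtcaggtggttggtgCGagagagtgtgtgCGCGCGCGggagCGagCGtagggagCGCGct
The printed part holds 0 CpG in Lcp2, 1 in Trat1, 3 in Cd5 and 21 in Rasgrp1. The G and C content of the 300 bases was 43.3%, 35.3%, 57.3% and 63.7%.

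Short motifs of factors downstream of the receptor and of cytokines were searched in the 300 bases on both strands, and a gene was counted where any of its promoters held the motif. GGAAA, the core that NFAT proteins bind, was found for 26 of the 34 members (76.5%), the 4 printed genes included, and for 64.5% of the tested genes with a promoter. For Cd5 the match reached into the 50 bases after the start, which are not printed. The STAT motif TTCNNNGAA was found for Cd3d, Orai1, Ptpn22 and Rasgrp1, 4 of 34 (11.8%), and for 8.38% of those tested genes, and its matches can overlap those of the NFAT core. The AP-1 motif TGANTCA was found for 0 of 34 and for 5.77%, and the cyclic AMP response element TGACGTCA for Zap70 alone of the 34 (2.94%) and for 3.91%. Counted per promoter over all 32851 promoters, the shares in that order were 61.3%, 8.30%, 7.81% and 1.79%. A match is a description of these letters in this window and no evidence of binding.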

How the data were processed

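The authors deposited FPKM values, with no scaling between libraries stated. HISAT2 2.2.1, StringTie 2.1.1 and the mm10 assembly are named in the submitters' processing notes. Annotation, strand and handling of multi-mapped reads: not given in the sources used here. Values were analysed as log2(FPKM + 1) for genes reaching 1 FPKM in 2 or more libraries. A model with 3 groups was fitted by limma 3.58.1 (R 4.3.3) to the 6 libraries together, with variances moderated along a trend (residual df 3, prior df 8.52). P-values are two-sided and were adjusted by Benjamini-Hochberg across the 10436 tested genes. An adjusted p under 0.05 passed. Errors are SE from that fit. The fit was tested on simulated data. A library left alone in its group was assumed to vary like the others.

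The members, role groups and lists were chosen with earlier results of these data known. All 42 members are named. Full values are given for the largest difference of each role group and for groups without overlap at 0.5 (log2) or more, and other pathway genes are named where they passed, except that 1 result is not reported here. Exon overlaps come from GENCODE M21 (GRCm38), where 42 of 42 symbols matched, with same-strand overlap in 3 and opposite-strand overlap in 10. Alternatives changed the pseudocount, filter, scaling, variance trend, groups, replicate term and libraries. Python 3.11.15 and matplotlib 3.10.9 drew the figures.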

Additional observations from a re-analysis of the deposited data

How the results depend on the processing

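For stimulated against unstimulated, members passing went from 0 to 2 with a minimum FPKM of 5, 1 after rescaling to TPM and 1 with quantile normalization, and ranged from 0 to 2 without single libraries. All genes passing went from 135 to 12 without the filter, 12 without the variance trend and 79 with only the 2 groups, and ranged from 54 to 141 without single libraries. For iBP against stimulated, members passing stayed at 0 in every alternative run, and all genes passing went from 1 to 0 without the filter and 0 without the trend, and ranged from 0 to 5 without single libraries. For iBP against unstimulated, members passing went from 0 to 3 with a minimum FPKM of 5 (Lcp2, Trat1, Cd5), 1 with TPM and 1 with quantile normalization, and ranged from 0 to 1 without single libraries. All genes passing went from 183 to 11 without the filter and 9 without the trend, and ranged from 53 to 190 without single libraries. With both stimulated groups combined, a contrast chosen after seeing the data, members passing went from 3 to 0 without the filter and 0 without the trend, and ranged from 0 to 2 without single libraries. All genes passing went from 254 to 20 and 32, and ranged from 116 to 224. The members' median of −0.06 ranged from −0.098 to 0.021 without single libraries. A replicate term, a replicate block, gave 79 genes for stimulated against unstimulated and 109 for iBP against unstimulated, with 0 members in each, and 1 member, Trat1, in the combined contrast. Same-numbered libraries did not deviate together over all tested genes (correlations −0.05, −0.02 and −0.01). With 2 libraries a group these correlations cannot decide whether equal numbers mark a shared animal or culture, which remains unknown. Signs of single members changed in 23 of 627, 43 of 627, 35 of 627 and 24 of 585 refits in the 4 contrasts, 0 of them in a gene that passed. Depth is unknown and 2 libraries a group limit the precision.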
